A study of Homo sapiens with 6 samples.

Results

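The comparison set HCT116 cells deprived of glucose for 6 h against the same cells in control medium. HCT116 is an established human colorectal carcinoma cell line. Poly(A) RNA was sequenced from 6 libraries, 1 in each medium from each of 3 lines, and each deprived library was paired with the control library of its own line. NC cells are labelled wild type. The other 2 lines, shYAP1 and shYAP3, carry constructs that knock down YAP, a transcriptional coactivator restrained by the Hippo kinases, and the series asked which expression induced by deprivation depends on it. All 3 lines are derivatives of 1 cell line, the labels name no clone or replicate culture, and the composition of the media is not given in the labels. Of 14987 genes listed in the deposited table, 12263 (81.8%) reached a value of 1 in 2 or more libraries and are described here, with the weight on programs formed by many genes of modest change.

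Glucose is both a fuel and a building block. It feeds glycolysis and the citric acid cycle, and through nucleotide sugars it supplies the glycans that are attached to proteins entering the endoplasmic reticulum. When reticulum proteins fail to fold, the sensors PERK, IRE1 and ATF6 raise chaperones, degradation factors and transport out of the reticulum. PERK and the amino acid sensor GCN2 also phosphorylate the initiation factor eIF2, which restrains translation while the transcription factor ATF4 is made. AMPK and mTORC1 are the kinases that match growth to energy and nutrients.

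The libraries held 16912634 to 22161075 listed reads, and 1 read was worth 0.0406 to 0.0693 on the deposited scale. In the NC control library 0 listed genes stood at 0, against 535 to 942 in each of the others. Genes without a read in the NC control library are therefore not among those listed, whatever their value after deprivation. Counts of higher and lower genes hold for the listed genes only. Values below are deposited normalized values, given as 3 numbers in the order NC, shYAP1 and shYAP3. They are not divided by transcript length and are compared only between libraries of 1 gene. YAP1, the target of the constructs, stood at 188, 35.7 and 38.2 in control medium and 154, 20.3 and 18.2 after deprivation, so both knockdown lines lay below NC in both media. The epithelial markers EPCAM (222, 219 and 202 in control medium), KRT8, KRT18 and KRT19 were present in every library. CDX2, also chosen as a marker, fell after deprivation and is described with the keratins below. CDH1, VIL1 and CDX1, chosen as well, are not described here. Of 10 fibroblast, 10 leukocyte and 8 endothelial markers, 2, 3 and 1 passed the filter, and these lists took at most 0.00145%, 0.00348% and 0.000763% of the reads of a library. Their range by medium was 0.00109% to 0.00145% in control and 0.000402% to 0.000862% in deprived medium (fibroblast markers), 0.00210% to 0.00239% in control and 0.00222% to 0.00348% in deprived medium (leukocyte markers) and 0.000432% to 0.000600% in control and 0.000325% to 0.000763% in deprived medium (endothelial markers). In the shYAP3 deprived library short transcripts lay higher and long transcripts lower than elsewhere, with median deviations from the gene mean of 0.44 in the shortest and −0.29 in the longest 10% of genes. In bulk RNA a change in the cells present and a change in RNA per cell cannot be told apart. P-values measure only the spread between these libraries, and NC has 1 library in each medium.

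Glucose deprivation changed the expression of a large part of the transcriptome by modest amounts. Of 12263 genes, 4453 passed limma at an adjusted p of 0.05, 2324 higher (19% of those tested) and 2129 lower (17.4%), or 36.3% in either direction. Changes of at least 2-fold were found in 328 higher (2.67%) and 302 lower genes (2.46%). On this scale 46 genes rose and 1 fell at least 4-fold, against 62 and 39 with DESeq2 and 62 and 36 with edgeR on recovered reads and 60 and 27 with a pseudocount of 0.1. In these 3 settings the 2-fold counts were 374, 402 and 418 higher and 546, 575 and 533 lower. At the lower end of size 814 of the higher and 685 of the lower genes changed by less than 1.5-fold. The median log2 fold change was 0.65 among higher genes, −0.68 among lower genes and 0.05 among all. Since 1 was added to each value before the log2 was taken, fold changes of genes with low values are understated. Without either shYAP1 library 498 genes were at least 2-fold higher, and without either shYAP3 library 197 were at least 2-fold lower.

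Of all tested genes 8125 (66.3%) changed in the same direction in all 3 lines. Among genes that passed, all 3 lines had the sign of the fitted change in 2315 of 2324 higher and 2123 of 2129 lower genes. The call itself largely sets this agreement, since a gene passes where its 3 changes are alike. The changes spread more widely in shYAP3 cells, with an SD across genes of 0.73 against 0.51 in NC and 0.50 in shYAP1 cells. Across all tested genes Pearson's correlation of the changes was 0.80 between NC and shYAP1, 0.76 between NC and shYAP3 and 0.76 between shYAP1 and shYAP3 cells. These pairs of lines share no library, and genes are not independent replicates. When the difference of the response between NC and the knockdown lines was itself tested in limma, 0 genes passed and 111 had an unadjusted p under 0.05. In that test differences between shYAP1 and shYAP3 cells counted as spread. With 1 NC library in each medium it rests on few libraries and cannot show that the lines responded alike.

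**Figure D1:**
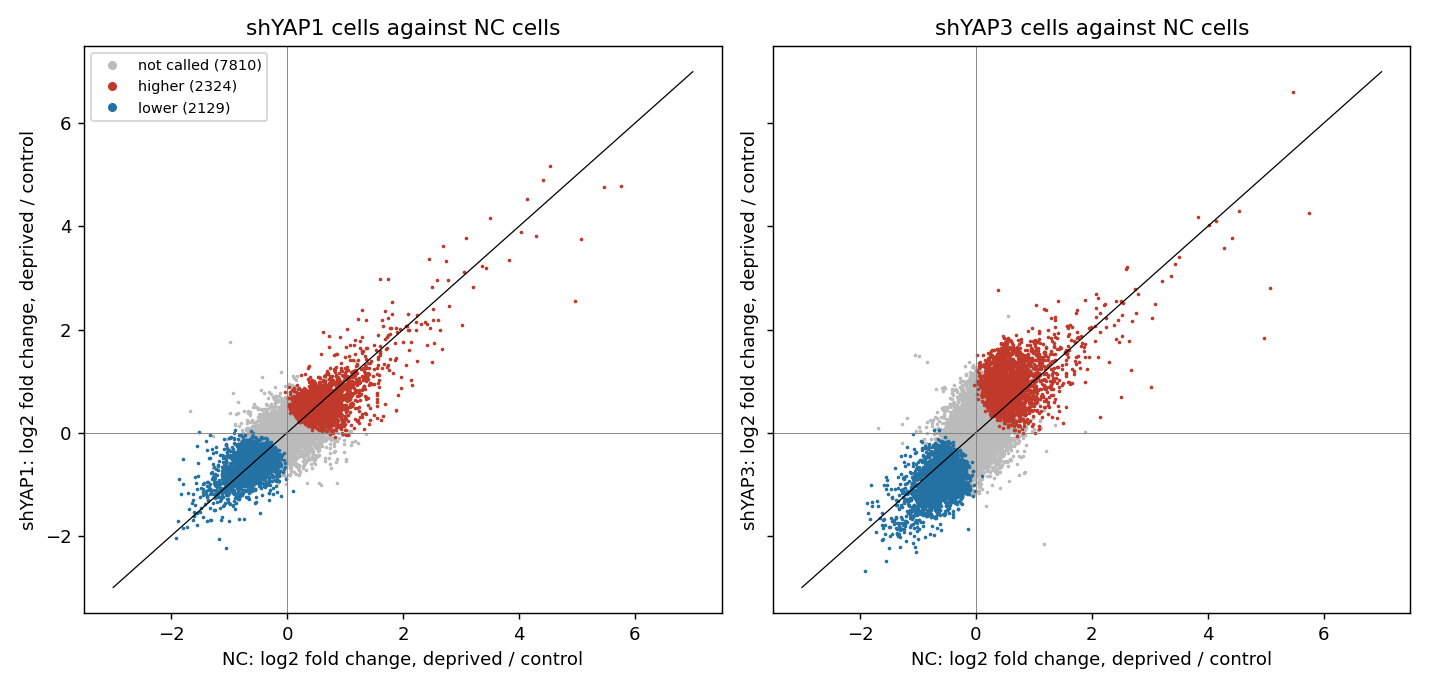
Log2 fold change of each tested gene after deprivation in shYAP1 (left) and shYAP3 cells (right) against that in NC cells, with genes that passed higher in red (2324), lower in blue (2129) and the others in grey, and a line of equal change. Nearly all points that passed lie in the lower left and upper right corners, which the call itself largely sets. The spread along the vertical axis is wider in shYAP3 cells (SD 0.73) than in shYAP1 cells (SD 0.50).

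Response and transcript length went together, more in the knockdown lines than in NC. The shortest 10% of genes had a median log2 fold change of 0.34 and the longest 10% of −0.19. In the order of lines used above, the medians were 0.10, 0.31 and 0.61 for the former and −0.03, −0.20 and −0.39 for the latter. Genes at least 2-fold higher had a median transcript length of 2960 bases and genes at least 2-fold lower 5526.5, against 3725 for all tested. Genes with 1 or 2 exons made up 16.6% of the former and 20.7% of the latter, against 10.2% of all. The GC content was 45.8% among the former and 55.0% among the latter, against 48.6%. The part of length and GC content in the results was not tested, and list medians are also given with both trends removed. The difference between lines was not tested.

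**Figure D2:**
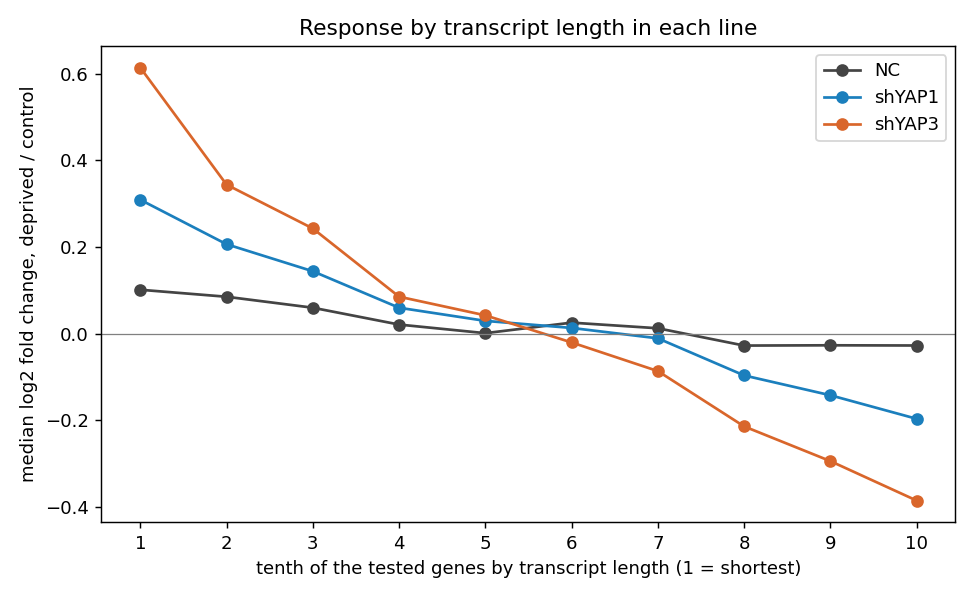
Median log2 fold change, deprived over control, in 10 classes of equal size of the tested genes ordered by transcript length from shortest to longest, for each line. The line for shYAP3 falls from 0.61 to −0.39 and that for shYAP1 from 0.31 to −0.20, whereas that for NC runs from 0.10 to −0.03.

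The genes were grouped in 57 lists of pathways, complexes and markers, read by counts and medians against the share of all tested genes, with no test of a list. That share was 19% higher and 17.4% lower, and the counts of every list below are to be read beside it. Scaling to listed reads in place of the deposited values moved the median of all genes from 0.05 to −0.24, so a list whose median lies between changes sign with that choice. Beside each list median stand its values with quantile normalization, with length and GC trends removed and without the libraries of a line, where these move it by more than 1.5 times or to the other sign and by at least 0.05. The value scaled to listed reads is given where the sign changes. The counts higher and lower are given where any of these settings turns their balance.

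**Figure D3:**
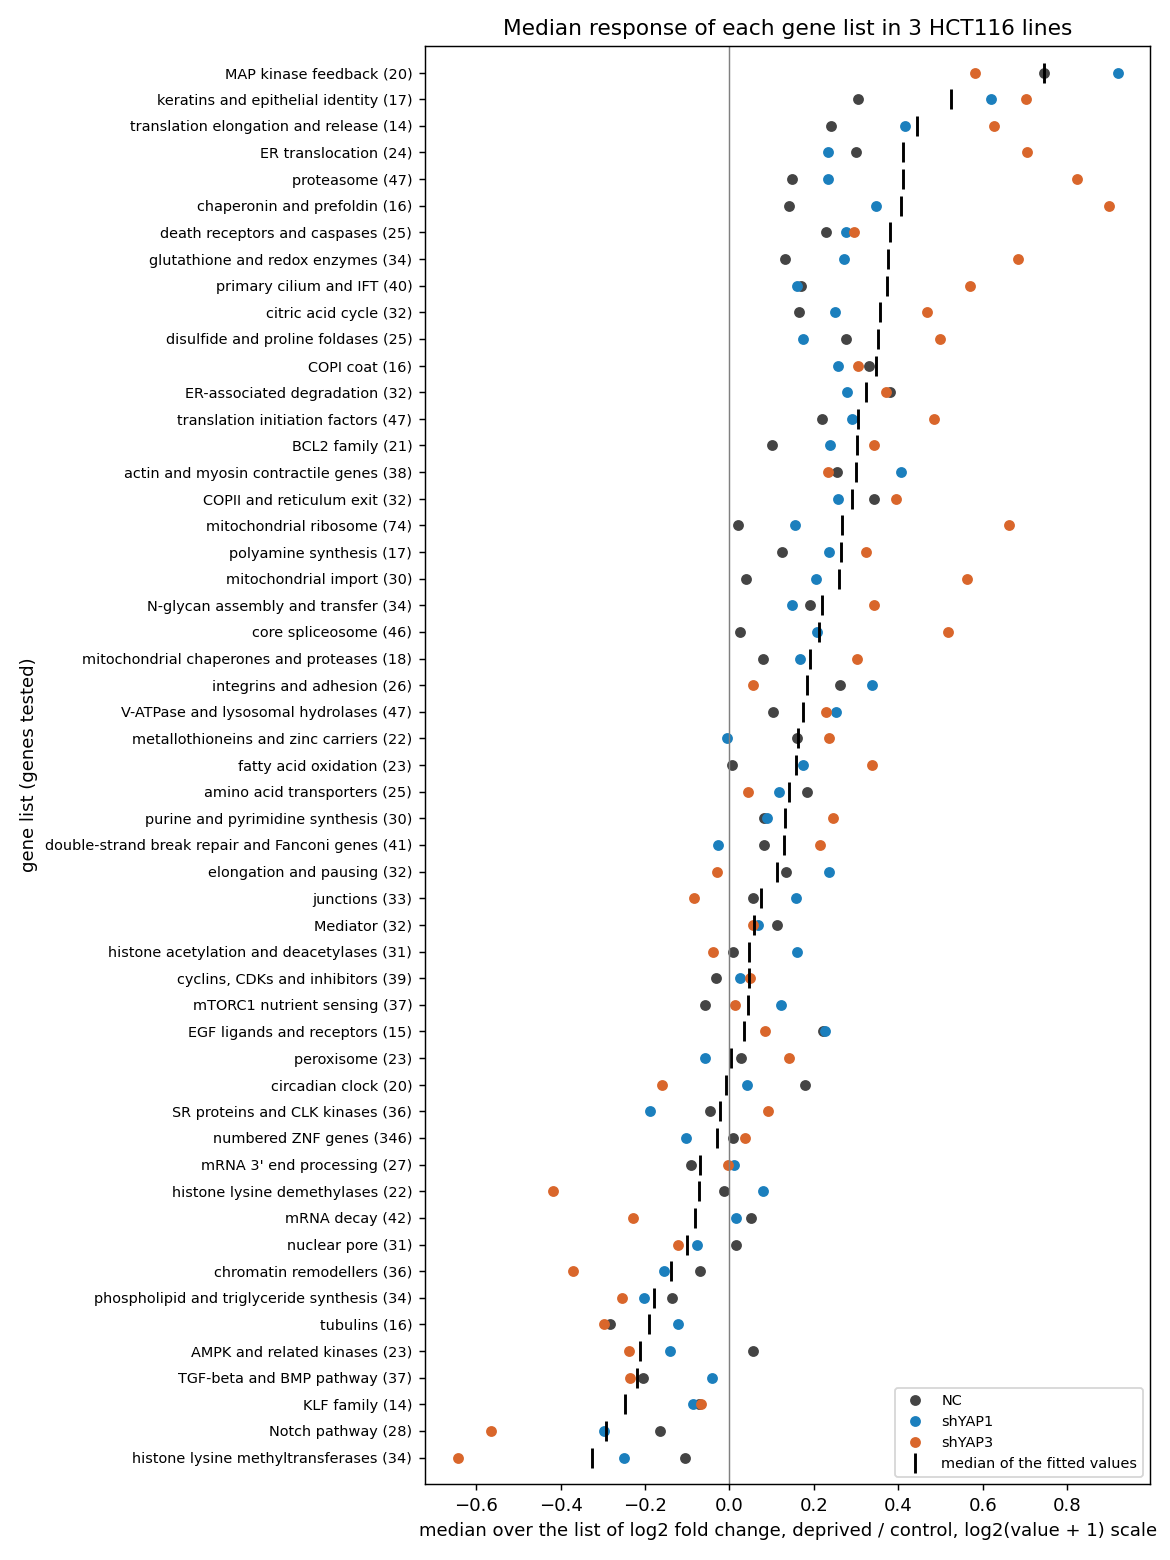
Median log2 fold change over the members of each list with at least 14 tested genes in NC, shYAP1 and shYAP3 cells (points), with the median of the fitted values (bar) and the number of genes tested in brackets. MAP kinase feedback genes stand at the top (0.74) and histone lysine methyltransferases at the bottom (−0.32), and for proteasome and mitochondrial ribosome genes the shYAP3 point lies far above the other 2.

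A few reticulum stress genes held a stress element in their promoter windows. The reticulum stress element (ERSE), bound by NF-Y together with ATF6 or XBP1, was searched on both strands as CCAAT and CCACG with 9 bases of any kind between them, from 250 bases before to 50 after the RefSeq start, in GRCh38.p14. It holds the shorter CCAAT box. Of 27305 RefSeq promoters 22 (0.0806%) held it, and 14 of the 10000 tested genes with a promoter in that table did (0.14%). Among those 14, 11 rose and 0 fell, 6 of them at least 2-fold, with a median log2 fold change of 0.95. The element was in 1 of 22 foldase, 1 of 30 N-glycan and 1 of 39 initiation factor promoters, but in 0 of 25 for reticulum-associated degradation, 0 of 28 for COPII and reticulum exit, 0 of 14 for COPI and 0 of 21 for translocation. The 250 bases before the start of HSPA5 and ERO1LB are shown, the former for the chaperone BiP and the latter for an oxidase that drives disulfide formation, with the element in capitals.
HSPA5: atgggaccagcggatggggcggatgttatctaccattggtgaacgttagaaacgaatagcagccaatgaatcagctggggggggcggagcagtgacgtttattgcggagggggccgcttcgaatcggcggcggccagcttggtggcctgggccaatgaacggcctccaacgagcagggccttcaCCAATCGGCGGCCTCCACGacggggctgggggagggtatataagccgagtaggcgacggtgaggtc
ERO1LB: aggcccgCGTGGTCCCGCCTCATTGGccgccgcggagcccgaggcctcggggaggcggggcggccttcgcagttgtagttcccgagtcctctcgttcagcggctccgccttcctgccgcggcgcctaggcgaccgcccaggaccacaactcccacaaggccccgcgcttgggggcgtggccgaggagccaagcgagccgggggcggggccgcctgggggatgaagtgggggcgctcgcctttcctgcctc
The HSPA5 stretch lies on the minus strand at chr9:125241344-125241593 and its element starts 66 bases before the gene's start. The ERO1LB stretch lies on the minus strand at chr1:236281959-236282208, and the element reads in the reverse direction from 243 bases before the start.

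HSPA5 stood at 788, 753 and 658 in control medium and 5464, 4158 and 4234 after deprivation, the largest change among genes with the element (log2 2.65, SE 0.17, limma adjusted p = 2.7e-06). All 3 deprived libraries lay above all control libraries. XBP1, the transcription factor made by IRE1 splicing, rose from 66.6, 63.3 and 42.1 to 176, 164 and 131, and HSP90B1, the reticulum HSP90 GRP94, from 914, 1131 and 979.9 to 2439, 2136 and 3739. FICD, which switches BiP off by adding AMP, rose from 3.43, 3.94 and 3.36 to 16.2, 8.02 and 11.02. In none of these did the media overlap. Here and below this only describes genes chosen by p-value or after their values were seen, and adds no support. The share of all tested genes without overlap is not given. CALR (log2 1.11), a lectin chaperone, CRELD2 (0.98), EIF2A (0.92), SERP1 (0.65), CANX (0.61) and ZNF17 (0.55) rose too. TRIM5 (0.32), ALG12 (0.03) and NLRP4 (0.03) did not pass. CANX did not pass without either NC or either shYAP1 library (highest limma adjusted p = 0.11) and ZNF17 did not without either NC library (0.069). The element was in 2.30% of the 261 promoters of genes at least 2-fold higher and in 0 of the 220 of genes at least 2-fold lower.

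Degradation and exit genes of the reticulum rose in part, some of them at least 2-fold. In the list for reticulum-associated degradation, the removal of misfolded proteins to the proteasome, 13 of 32 genes rose and 3 fell (40.6% and 9.38%, against 19% and 17.4% of all tested), with a median of 0.32. SEL1L, the adaptor of the HRD1 ubiquitin ligase, stood at 76.1, 76.9 and 79.2 in control medium and 240.1, 185 and 276 after deprivation (log2 1.56, SE 0.16, limma adjusted p = 6.6e-05). Its control libraries were nearly level and every deprived library was more than 2 times as high. SDF2L1, a partner of BiP, stood at 41.5, 38.4 and 38.4 in control and 115, 102 and 123 in deprived medium (log2 1.496), and DERL2, a channel component, at 25.3, 27.1 and 23.8 in control and 59.8, 55.6 and 76.3 in deprived medium (1.29). The ubiquitin-conjugating enzyme UBE2G2 went the other way, from 118, 126 and 118 to 70.02, 67.1 and 61.3 (log2 −0.86, limma adjusted p = 0.0014). The ATPase VCP, which pulls substrates out of the membrane, did not pass (−0.19, adjusted p = 0.31).

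Of 32 genes of the COPII coat, which buds vesicles from the reticulum, and of reticulum exit, 12 rose and 1 fell (median 0.29, but −0.01 scaled to listed reads and 0.17 with length and GC trends removed). TMED7, a cargo receptor, stood at 135, 162 and 143 in control medium and 399, 355 and 439 after deprivation (log2 1.43, SE 0.16, limma adjusted p = 0.00013), with no overlap. The coat subunit SEC24D (1.01), the SNARE STX5 (1.04) and CTAGE5 (1.10), which helps load large cargo, also rose at least 2-fold. TMED2 rose by less (0.49) and did not pass without either NC or either shYAP1 library (highest limma adjusted p = 0.14). Of 16 genes of the COPI coat, which returns vesicles to the reticulum, 5 rose and 0 fell (median 0.35, but 0.04 scaled to listed reads with 0 higher and 3 lower and 0.14 with quantile normalization). Without the shYAP3 deprived library the counts were 8 and 0. COPB1 (0.70), COPE (0.63), COPB2 (0.60) and ARFGAP3 (0.60) were among those that rose, and ARF1, the GTPase that recruits the coat, did not pass (0.37, limma adjusted p = 0.072).

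Genes for entry into the reticulum that passed all rose, by less than 2-fold. Of 24 translocation genes 12 rose (50%) and 0 fell (median 0.41, but 0.26 with quantile normalization). SEC11C, a subunit of the signal peptidase, stood at 28.7, 30.95 and 23.8 in control and 45.2, 46.5 and 79.2 in deprived medium (log2 0.97). SEC62 (0.91), TRAM1 (0.89) and SSR4 (0.78), parts of the translocation machinery, rose as well. The channel subunit SEC61A1 was level (341, 319 and 282 in control and 363, 327 and 283 in deprived medium, limma adjusted p = 0.83), and its media overlapped. Among 34 genes that assemble N-glycans and transfer them to proteins, 10 rose and 1 fell (median 0.22, but −0.07 scaled to listed reads). The genes that rose included the oligosaccharyltransferase subunits RPN1 (0.73), OSTC (0.88), TMEM258 (0.86) and MAGT1 (0.76). DOLK, the kinase that makes the lipid carrier of the glycan, fell from 15.7, 15.98 and 15.8 to 8.25, 9.58 and 9.50 (log2 −0.74, limma adjusted p = 0.0039), with 3 nearly level libraries in each medium.

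Among foldases 12 of 25 rose and 2 fell (median 0.35, but 0.23 with length and GC trends removed). ERO1LB rose from 4.88, 4.99 and 5.36 to 15.5, 11.8 and 14.002 (log2 1.27, SE 0.16, limma adjusted p = 0.00028). PDIA4 (1.25) and ERP44 (0.81), disulfide isomerase family members, rose too. FKBP11, a proline isomerase of the secretory pathway, fell from 11.2, 10.3 and 9.41 to 4.63, 4.12 and 2.70 (log2 −1.25, limma adjusted p = 0.00034), against the direction of the list. P4HB, protein disulfide isomerase itself, rose by 0.57, but not without either NC or either shYAP1 library (highest limma adjusted p = 0.21), and stood at −0.066 with quantile normalization.

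Genes that control or carry out translation rose in part. Of 47 initiation factors and their regulators 18 rose (38.3%) and 3 fell (median 0.30, but −0.0028 scaled to listed reads with 8 higher and 9 lower and 0.06 with quantile normalization). PPP1R15A, or GADD34, the phosphatase subunit that removes the phosphate from eIF2, stood at 30.2, 26.3 and 29.4 in control medium and 212, 212 and 151 after deprivation (log2 2.69, SE 0.16, limma adjusted p = 1.4e-06). The lowest deprived library, that of shYAP3, was far above all control libraries. EIF2AK3, which encodes PERK, rose from 21.3, 22.3 and 20.5 to 64.7, 54.8 and 47.3 (1.33). EIF1, which guards the choice of start codon, rose from 308, 312 and 295 to 664, 674 and 641 (1.11), nearly level across the lines. EIF3E (log2 1.02) rose from 478, 664 and 587 to 795, 1062 and 1845, with shYAP3 the highest, and EIF1B by 0.78. EIF4B, a helper of the cap-binding helicase, rose by 0.49, but not without either NC or either shYAP1 library (highest limma adjusted p = 0.19), and stood at −0.14 with quantile normalization.

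In the elongation step 6 of 14 genes rose and 1 fell (median 0.44, but 0.15 with quantile normalization). EEF2, the translocase, stood at 2734, 2462 and 2405 in control and 4592, 4719 and 4283 in deprived medium (log2 0.84), whereas EEF2K, the kinase that inhibits it, fell from 41.6, 35.7 and 38.3 to 32.03, 22.6 and 19.6 (−0.64, limma adjusted p = 0.0093, but −0.27 and not past the threshold with length and GC trends removed). TPT1 (1.002) and EEF1B2 (0.88) rose. EEF1A1, for which reads can be shared with processed pseudogenes, stood at 13968, 14759 and 12703 in control and 22756, 24248 and 29266 in deprived medium (log2 0.87). EEF2 did not pass without either shYAP1 library (limma adjusted p up to 0.087), and EEF1A1 did not without those or either NC library (up to 0.11). The share of listed reads in the elongation list was 2.61%, 2.67% and 2.53% in control and 3.54%, 3.70% and 3.97% in deprived medium, so its share was higher in all 3 lines.

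**Figure D4:**
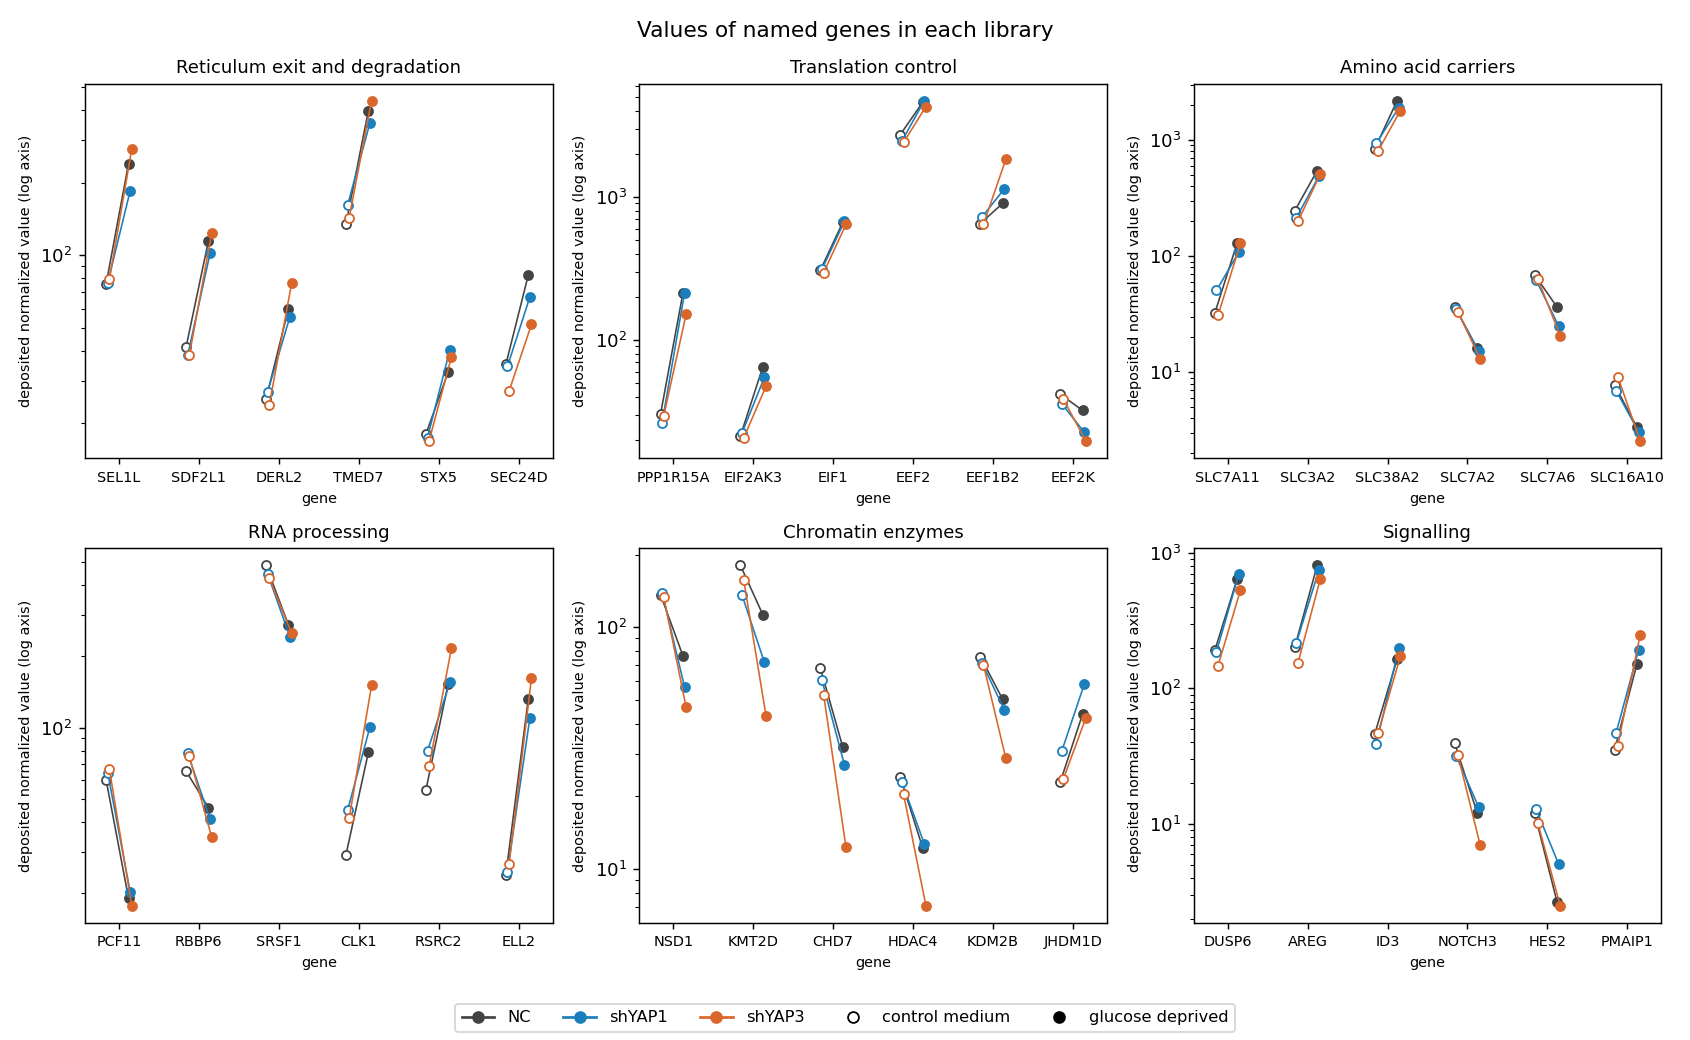
Deposited normalized value on a log axis for 36 named genes in 6 groups, with control medium (open points) joined to deprived medium (filled points) within NC, shYAP1 and shYAP3 cells. Lines rise for secretory genes such as SEL1L (76.1 to 240.1 in NC cells) and fall for PCF11 (60.004 to 19.05 in NC cells) in each line.

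Amino acid carriers moved in both directions. Of 25 carriers 8 rose and 8 fell, each 32%, and 3 in each direction changed at least 2-fold. SLC7A11, the cystine and glutamate exchanger, stood at 32.5, 50.7 and 31.1 in control medium and 131, 109 and 129 after deprivation (log2 1.69, SE 0.19, limma adjusted p = 0.00014). Its partner chain SLC3A2 rose from 247, 214 and 200.2 to 547, 488 and 513 (1.23), and SLC38A2, a carrier of small neutral amino acids, from 842, 939 and 803 to 2191, 1904 and 1800 (1.19). In each of them the media did not overlap. SLC7A2, a carrier of cationic amino acids, fell from 36.6, 34.8 and 33.3 to 16.1, 15.2 and 12.96 (log2 −1.19, limma adjusted p = 0.00027). SLC7A6, which also pairs with SLC3A2, fell from 69.2, 62.03 and 63.9 to 36.5, 25.1 and 20.6 (−1.26), and SLC16A10, a carrier of aromatic amino acids, from 7.79, 6.94 and 9.18 to 3.35, 3.08 and 2.56 (−1.16). The median of the list was 0.14, but −0.16 scaled to listed reads, 0.04 with quantile normalization and 0.09 without either shYAP3 library. The counts higher and lower were 6 and 10 scaled to listed reads and 10 and 7 with length and GC trends removed.

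Most genes of mTORC1 nutrient sensing did not pass. Among 37 genes of mTORC1 nutrient sensing 5 rose and 6 fell (median 0.04, but −0.23 scaled to listed reads, 0.06 without either NC library with 6 higher and 5 lower and 0.05 without either shYAP1 library with 5 higher and 4 lower), shares below the 19% and 17.4% of all tested genes. SESN2, a sestrin that restrains mTORC1, stood at 8.80, 9.33 and 7.72 in control and 89.5, 71.9 and 65.99 in deprived medium (log2 2.99, SE 0.15, limma adjusted p = 2.7e-07). DDIT4, or REDD1, another restraint, rose from 415, 356 and 314 to 918, 674 and 845 (1.16), and DEPTOR, an inhibitory partner of mTOR, from 1.76, 3.16 and 2.41 to 4.74, 7.38 and 4.78 (0.94). TSC2, also a restraint, did not pass (−0.28, limma adjusted p = 0.22). RPTOR, the subunit that recruits mTORC1 substrates, fell from 85.7, 74.2 and 79.2 to 53.5, 51.5 and 31.6 (log2 −0.83, limma adjusted p = 0.0043). Of 23 genes of AMPK and related kinases 1 rose, the subunit gene PRKAG1 (0.93), and 4 fell, with CAMKK2, a kinase that activates AMPK, from 75.05, 61.2 and 71.9 to 43.05, 38.4 and 32.3 (−0.86). The shares of this kinase list were 4.35% higher and 17.4% lower, the latter like that of all tested genes. The median of the list was −0.21, but 0.03 with length and GC trends removed and −0.06 without either shYAP3 library. The counts higher and lower were 4 and 4 with those trends removed and 3 and 3 without the shYAP3 deprived library. MARK1 (−0.57) lost its call when either NC library was left out (limma adjusted p up to 0.075) and NUAK1 (−0.55) without either shYAP3 library (up to 0.080).

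No gene of the citric acid cycle, fatty acid oxidation or nucleotide synthesis lists passed with a change of 2-fold. Of 32 citric acid cycle and pyruvate entry genes 11 rose (34.4%) and 1 fell (median 0.36, but 0.06 scaled to listed reads with 0 higher and 4 lower, 0.22 with quantile normalization, 0.16 with length and GC trends removed and 0.22 without either shYAP3 library). DLD, the shared E3 subunit of the dehydrogenase complexes, stood at 86.6, 99.6 and 104 in control and 128, 139 and 207 in deprived medium (log2 0.67), and MDH1 (0.68) and SUCLG2 (0.70) rose. PDPR, a regulator of pyruvate dehydrogenase phosphatase, fell (−0.66). Fatty acid oxidation had 3 of 23 genes higher, ACADM (0.84) and DECR1 (0.64) among them, and 2 lower (median 0.16, but −0.14 scaled to listed reads with 1 higher and 7 lower, 0.08 with quantile normalization and 0.24 without either NC library), CPT2 (−0.51, but not without either NC library, limma adjusted p = 0.14) among them. The purine and pyrimidine list had 4 of 30 higher and 4 lower (median 0.13, but −0.14 scaled to listed reads with 0 higher and 6 lower, −0.05 with quantile normalization with 2 higher and 5 lower and 0.04 with length and GC trends removed with 7 higher and 5 lower). There the 2 forms of IMP dehydrogenase, the first step to guanine nucleotides, moved apart: IMPDH1 fell from 92.2, 89.5 and 77.3 to 50.1, 54.3 and 32.3 (−0.94) and IMPDH2 rose from 431, 459.9 and 403 to 605, 666 and 765 (0.65, but not without the shYAP1 control library, limma adjusted p = 0.052, or scaled to listed reads). CAD, which starts pyrimidine synthesis, fell from 219, 183 and 178 to 157, 116 and 75.6 (−0.79).

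Of 34 enzymes that build phospholipids and triglycerides, 2 rose and 9 fell (26.5%, median −0.18, but −0.10 with length and GC trends removed and −0.12 without either shYAP3 library). LPCAT1, which rebuilds phosphatidylcholine, stood at 122, 108 and 108 in control medium and 58.4, 46.5 and 31.9 after deprivation (log2 −1.33, SE 0.16, limma adjusted p = 0.00028). AGPAT3 (−0.87), DGAT2 (−0.94), which makes triglyceride, and ETNK1 (−0.80), the ethanolamine kinase, fell as well. In polyamine metabolism 4 of 17 genes rose and 1 fell (median 0.26, but −0.04 scaled to listed reads with 3 higher and 4 lower and 0.12 with quantile normalization). The genes that rose include SAT1 (0.98) and SMOX (0.78), which break polyamines down, and ARG2 (0.85). AMD1, needed to make spermidine, fell (−0.53), but not without either NC or either shYAP1 library (highest limma adjusted p = 0.30). ODC1, the first enzyme of the path, was level (575, 541 and 535 in control and 512, 526 and 611 in deprived medium).

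Glutathione and redox genes held the largest change of the named genes. Of 34, 10 rose (29.4%) and 0 fell (median 0.37, but 0.18 with quantile normalization, 0.19 with length and GC trends removed and 0.19 without either shYAP3 library). CHAC1, which breaks glutathione down, stood at 2.82, 3.08 and 1.77 in control medium and 53.2, 40.5 and 49.2 after deprivation (log2 3.78, SE 0.18, limma adjusted p = 1.4e-07). Its promoter window holds the composite CHOP and ATF4 element (CARE), searched as TTGCATCA on both strands. The 250 bases before its start are shown with the element in capitals.
CHAC1: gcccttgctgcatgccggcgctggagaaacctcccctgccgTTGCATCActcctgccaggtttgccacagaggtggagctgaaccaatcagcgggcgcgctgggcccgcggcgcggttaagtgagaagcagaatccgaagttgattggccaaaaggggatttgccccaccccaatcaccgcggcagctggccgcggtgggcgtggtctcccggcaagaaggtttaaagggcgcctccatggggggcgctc
This stretch lies on the plus strand at chr15:40953221-40953470, with the element 209 bases before the start. The 8 letters were in 0.923% of RefSeq promoters of this length and in 49 tested genes, of which 18 rose and 4 fell, with a median of 0.23. HERPUD1, a reticulum degradation factor (log2 3.30), CARS (1.17) and AARS (1.03), tRNA synthetases, and GOT1 (1.13), a transaminase, were among those that rose. GLRX, a glutaredoxin, rose from 22.7, 32.2 and 23.4 to 38.3, 58.6 and 83.9 (1.12), and TXN2 (0.63) and GSS (0.58), glutathione synthetase, rose by less. GSS did not pass without either shYAP1 library (limma adjusted p up to 0.070). TXNRD1, thioredoxin reductase, rose by 0.51, but not without either NC or either shYAP1 library (highest adjusted p = 0.23), and stood at −0.034 with quantile normalization.

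**Figure D5:**
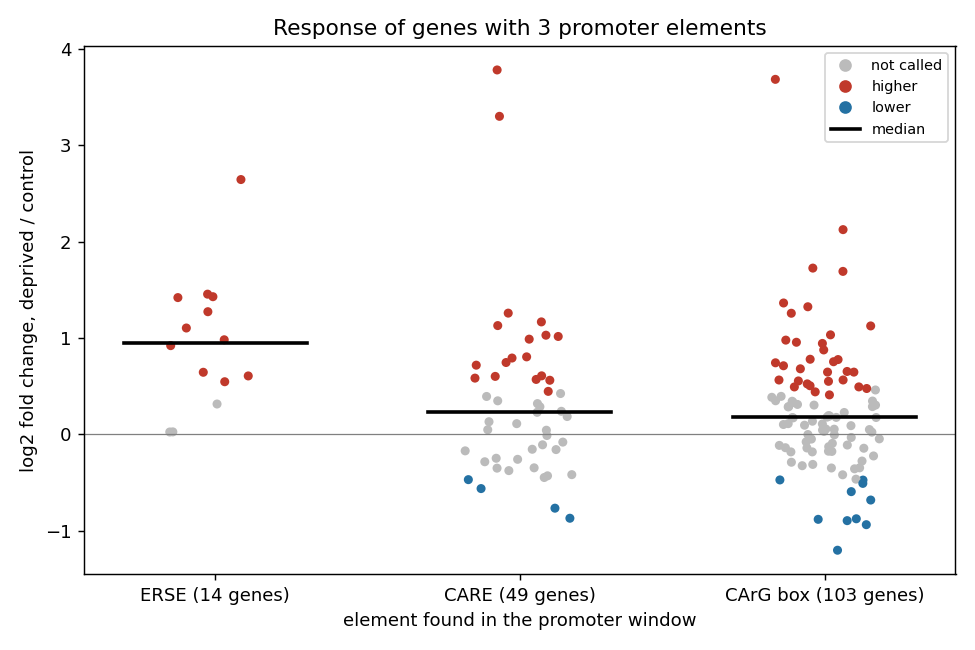
Log2 fold change of each tested gene whose promoter window holds the reticulum stress element (ERSE, 14 genes), the CHOP and ATF4 element (CARE, 49 genes) or a CArG box (103 genes), coloured by call, with the median as a bar. Of the ERSE genes 11 lie in red above 0 (median 0.95), whereas the medians of the CARE and CArG genes lie at 0.23 and 0.18 with a few genes above 3.

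Of 10 elements searched, the 3 plotted had the highest medians, and the other 7 lay closer to the shares of all tested genes (19% higher and 17.4% lower). The other reticulum stress element searched (UPRE, TGACGTGG, in 0.795% of RefSeq promoters) was in 96 tested genes, of which 22 rose and 17 fell (median 0.12). The cyclic AMP element (CRE, TGACGTCA, 1.98%) was in 339, with 79 higher and 41 lower (median 0.13), and the AP-1 site (TGANTCA, 7.76%) in 430, with 98 higher and 67 lower (0.12). The site of the TEAD factors, through which YAP acts, was searched as GGAATG (14.05%) and found in 1050 tested genes, 205 of them higher and 156 lower (median 0.09). The E-box (CACGTG, 7.43%) was in 1030, with 176 higher and 187 lower (0.05), and the CLEAR site of TFEB (an E-box with GT before and AC after it, 0.381%) in 84, with 14 higher and 10 lower (0.07). The CCAAT box (35.7%) was in 3666, with 762 higher and 595 lower (0.07). All were searched on both strands.

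Part of the genes of cytosolic proteostasis complexes rose, with the highest medians in shYAP3 cells, a difference between lines that was not tested. Of 47 proteasome genes 19 rose (40.4%) and 0 fell, none by 2-fold. The median was 0.41, and 0.15, 0.23 and 0.82 by line. It was 0.10 scaled to listed reads with 1 higher and 5 lower, 0.21 with quantile normalization, 0.10 with length and GC trends removed and 0.20 without either shYAP3 library. The part of transcript length in this rise was not tested further. PSMC1, an ATPase of the cap, stood at 176, 199 and 182 in control and 222, 297 and 479.8 in deprived medium (log2 0.77, limma adjusted p = 0.011), with shYAP3 far above the others. ADRM1 (0.59), PSMB4 (0.57) and PSMD8 (0.60) did not pass without either shYAP1 library (limma adjusted p up to 0.11, 0.090 and 0.070). PSMD2 did not pass (−0.12).

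The chaperonin and prefoldin list, which folds actin and tubulin, had 7 of 16 genes higher and 0 lower (median 0.41, but 0.25 with length and GC trends removed, 0.61 without either NC library and 0.22 without either shYAP3 library). The named genes that rose were prefoldin subunits and their relative UXT (0.62). PFDN2 stood at 76.2, 84.8 and 73.5 in control and 141, 149 and 226 in deprived medium (log2 1.10, limma adjusted p = 0.0012), PFDN4 rose by 1.06, and PFDN5 by 0.88. The chaperonin subunit CCT3 did not pass (0.35).

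Nuclear genes for the mitochondrion also had their highest list medians in shYAP3 cells, which was not tested. Of 74 mitochondrial ribosome genes 18 rose (24.3%, against 19%) and 2 fell. The medians were 0.02, 0.16 and 0.66 by line, and the list stood at 0.27 in the fit, but at −0.03 scaled to listed reads with 4 higher and 7 lower, 0.17 with quantile normalization, 0.04 with length and GC trends removed with 8 higher and 13 lower, 0.42 without either NC library and 0.07 without either shYAP3 library. MRPL54 stood at 20.1, 22.1 and 22.8 in control and 27.5, 41.7 and 59.7 in deprived medium (log2 0.89), and MRPL42 (0.86), MRPL1 (0.83) and MRPS30 (0.63) rose. In the import list 7 of 30 rose and 1 fell (median 0.26, but −0.04 scaled to listed reads with 1 higher and 2 lower, 0.15 with quantile normalization, 0.04 with length and GC trends removed, 0.39 without either NC library and 0.12 without either shYAP3 library). These were 23.3% and 3.33%, against 19% and 17.4% of all tested genes. GRPEL2, a cochaperone of import, rose from 52.3, 53.3 and 53.7 to 96.7, 81.5 and 108 (0.82), and the presequence peptidase subunit PMPCA fell (−0.62, but not without either NC library, limma adjusted p of at most 0.094). Among mitochondrial chaperones and proteases 2 of 18 rose and 1, SPG7 (−0.58), fell (median 0.19, but −0.12 scaled to listed reads with 0 higher and 3 lower, −0.04 with quantile normalization and 0.23 without either shYAP1 library with 0 higher and 1 lower). PARL (0.500), a rhomboid protease, did not pass without either shYAP1 library (limma adjusted p up to 0.072), and the prohibitin PHB2 (0.48) without those or either NC library (up to 0.18). HSPD1, the mitochondrial HSP60, did not pass (0.39, limma adjusted p = 0.11).

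RNA processing factors held a few strong changes in either direction. PCF11, which couples cleavage of the transcript to termination, stood at 60.004, 64.3 and 66.8 in control medium and 19.05, 20.3 and 17.7 after deprivation (log2 −1.69, SE 0.15, limma adjusted p = 2.3e-05). All 3 deprived libraries were close to each other and far below all control libraries. Of 27 genes of 3' end processing 0 rose and 3 fell in limma, PCF11, RBBP6 (−0.84) and SCAF4 (−0.55, but not without either NC library, adjusted p of at most 0.051). The share lower was 11.1%, below the 17.4% of all tested genes. The median of that list was −0.07, but −0.16 with quantile normalization, −0.0002 without either NC library and 0.003 without either shYAP1 library. With length and GC trends removed 3 were higher and 5 lower, and scaled to listed reads 0 and 9. Among 36 SR proteins, their CLK kinases and related factors 6 rose and 5 fell (median −0.02, but −0.33 scaled to listed reads with 3 higher and 15 lower, −0.20 with quantile normalization with 4 higher and 14 lower, −0.13 with length and GC trends removed with 9 higher and 12 lower, 0.06 without either shYAP1 library and −0.12 without either shYAP3 library with 9 higher and 10 lower). CLK1, a kinase of SR proteins, rose from 29.1, 44.7 and 41.4 to 78.5, 101 and 151 (1.47), CLK4 by 1.04 and RSRC2 from 54.6, 79.8 and 68.9 to 153, 155 and 217 (1.35). SRSF1, an SR protein that binds splicing enhancers, fell from 483, 445 and 427 to 271, 241 and 250.2 (log2 −0.83, limma adjusted p = 0.0020). LUC7L3 fell (−0.81), but not without the shYAP1 deprived library (adjusted p = 0.053).

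Of 46 core spliceosome genes 10 rose and 0 fell (median 0.21, but −0.09 scaled to listed reads with 3 higher and 8 lower, 0.05 with quantile normalization, 0.10 with length and GC trends removed and 0.11 without either shYAP3 library). BUD31 stood at 47.99, 49.5 and 48.8 in control and 88.8, 97.6 and 123 in deprived medium (log2 1.05), and CDC5L (0.85) rose. In the mRNA decay list 5 of 42 rose and 9 fell (median −0.08, but −0.16 with quantile normalization and −0.02 without either shYAP3 library). ZFP36, or tristetraprolin, which marks AU-rich messages for decay, rose from 15.8, 13.3 and 12.9 to 53.3, 72.9 and 30.9 (1.75), and BTG1, a deadenylase partner, by 0.90. The nonsense-mediated decay factors UPF1 (from 153, 120.3 and 125 to 97.3, 85.6 and 49.1, log2 −0.82) and SMG5 (−0.77) fell. Of 23 host genes of snoRNAs named, 1 was tested, TAF1D (0.97). Nuclear pore genes had 2 of 31 higher and 4 lower (median −0.10, but −0.25 with quantile normalization, 0.04 with length and GC trends removed, −0.17 without either NC library and −0.01 without either shYAP3 library), so most did not pass. The latter were NUP62 (−0.58), NUP188 (−0.65), NUP210 (−0.56) and NUP50 (−0.48), of which NUP50 did not pass without either NC or either shYAP1 library (highest limma adjusted p = 0.15).

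Among histone lysine methyltransferases and chromatin remodellers more genes fell than rose on the deposited scale, and most did not pass. Of 34 histone lysine methyltransferases 11 fell (32.4%, against 17.4%) and 1 rose, with a median of −0.32, the lowest in the plot of list medians. The medians were −0.11, −0.25 and −0.64 by line, and the list stood at −0.09 with length and GC trends removed and −0.21 without either shYAP3 library. These are long transcripts, with a median of 6639 bases against 3725 for all, and the part of length was not tested further. NSD1, which methylates histone H3 at lysine 36, stood at 137, 139 and 134 in control medium and 76.3, 56.8 and 46.8 after deprivation (log2 −1.20, SE 0.16, limma adjusted p = 0.00044), and −0.81 with those trends removed. KMT2D, an enhancer methyltransferase, stood at 180.4, 136 and 158 in control and 113, 71.6 and 43.04 in deprived medium (−1.15), with shYAP3 the lowest of the deprived libraries. SMYD3, the 1 that rose, went from 18.4, 18.3 and 17.5 to 26.9, 33.05 and 30.9 (0.71), but did not pass scaled to listed reads.

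Among 36 chromatin remodellers 12 fell and 3 rose (median −0.14, but −0.28 with quantile normalization, −0.02 with length and GC trends removed with 7 higher and 6 lower and −0.27 without either NC library). CHD7 stood at 67.8, 60.4 and 52.8 in control and 31.98, 27.1 and 12.3 in deprived medium (log2 −1.40, limma adjusted p = 0.00045), with no overlap between media. ARID1B (−0.82), a BAF subunit, BAZ2A (−0.80) and CHD4 (−0.60), the NuRD ATPase, fell. ATRX rose (0.95), but not without the NC control library (limma adjusted p = 0.051). Demethylases split evenly on the deposited scale, with 5 of 22 higher and 5 lower (median −0.07, but −0.15 with quantile normalization, 0.06 with length and GC trends removed, −0.20 without either shYAP1 library and 0.02 without either shYAP3 library). Their counts were 3 and 10 scaled to listed reads, 4 and 8 with quantile normalization and 8 and 4 with length and GC trends removed. JHDM1D (0.87, now KDM7A), JMJD1C (0.86) and KDM3A (from 205, 233 and 202 to 288, 352 and 501, 0.80) rose, and KDM2B fell from 75.8, 71.4 and 70.02 to 50.4, 45.7 and 28.7 (−0.82). Of 31 acetylation genes 5 rose, KAT5 (0.74) and HDAC9 (0.88) among them, and 4 fell (median 0.05, but −0.26 scaled to listed reads with 2 higher and 12 lower and −0.07 with quantile normalization). HDAC4, a deacetylase that shuttles out of the nucleus, fell from 24.02, 22.9 and 20.4 to 12.2, 12.7 and 7.07 (log2 −1.04, limma adjusted p = 0.0011).

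Among the genes of elongation and pausing and of Mediator the largest change was in ELL2. ELL2, of the super elongation complex, stood at 23.9, 24.7 and 26.6 in control medium and 132, 109.6 and 161 after deprivation (log2 2.36, SE 0.15, limma adjusted p = 2.6e-06), so that each deprived library was more than 4 times its control. In its list 7 of 32 rose and 5 fell (median 0.11, but −0.19 scaled to listed reads with 4 higher and 9 lower, 0.02 with quantile normalization, 0.26 with length and GC trends removed and 0.21 without either shYAP3 library), with EAF2 (1.06), a partner of ELL, MLLT3 (0.98) and LARP7 (0.94), which holds the pausing complex 7SK, among the former. Of 32 Mediator genes 5 rose, MED8 (0.95) among them, and 2 fell, MED22 (−0.77) among them (median 0.06, but −0.23 scaled to listed reads with 2 higher and 7 lower and 0.14 without either shYAP3 library). The shares higher and lower were 21.9% and 15.6% for elongation and pausing and 15.6% and 6.25% for Mediator. Those of all tested genes were 19% and 17.4%. Clock genes had 7 of 20 higher and 2 lower (median −0.01, but 0.25 with length and GC trends removed, −0.09 without either NC library and 0.08 without either shYAP3 library). The repressors BHLHE40 (from 117, 125 and 85.6 to 290.4, 299.99 and 191, log2 1.24), NFIL3 (1.21) and NR1D1 (from 18.9, 15.3 and 16.04 to 55.02, 52.04 and 31.4, 1.38) rose at least 2-fold, and ARNTL, or BMAL1, rose by 0.91. In NR1D1 the shYAP3 deprived library was the lowest of the 3.

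Most feedback inhibitors of growth signalling rose. Of 20 MAP kinase feedback genes 12 rose (60%), 8 of them at least 2-fold, and 1 fell. The median of 0.74 was the highest of the lists plotted and stood at 0.44 scaled to listed reads. DUSP6, a phosphatase that acts on ERK in the cytosol, stood at 192, 186 and 147 in control and 646, 699 and 531 in deprived medium (log2 1.83, SE 0.15, limma adjusted p = 1.3e-05). DUSP1, a nuclear phosphatase, rose from 8.84, 7.83 and 7.82 to 45.7, 41.8 and 35.6 (2.19) and DUSP2 from 10.9, 13.2 and 12.04 to 39.003, 112 and 67.2 (2.37). In DUSP2 the NC deprived library was the lowest of the 3, and the difference of the response between NC and the knockdown lines did not pass (limma adjusted p = 1.0). That test rests on few libraries and cannot show equal responses. DUSP5 (3.21), DUSP4 (1.28), IER3 (1.71) and ERRFI1 (1.19), which binds and inhibits EGF receptors, also rose. Among EGF ligands and receptors 5 of 15 rose and 4 fell (median 0.03, but −0.15 scaled to listed reads with 4 higher and 5 lower, 0.13 with quantile normalization, 0.24 with length and GC trends removed, 0.09 without either NC library, 0.15 without either shYAP1 library and 0.22 without either shYAP3 library). The ligands HBEGF (from 5.28, 6.17 and 4.54 to 31.7, 30.7 and 22.5, log2 2.20), AREG (from 202, 217 and 154 to 808, 742 and 645, 1.94) and EREG (0.82) rose, as did ADAM17 (0.81), the protease that sheds them.

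The TGF-beta and BMP list had 8 of 37 higher and 9 lower (median −0.22, but −0.03 with length and GC trends removed and −0.14 without either NC library with 7 higher and 6 lower). GDF15, a secreted stress cytokine, stood at 39.9, 48.6 and 28.4 in control medium and 244, 384 and 266 after deprivation (log2 2.91, SE 0.16, limma adjusted p = 5.8e-07). The BMP targets ID3 (from 46.2, 39.1 and 46.5 to 164, 198 and 172, 1.99) and ID2 (1.37) rose, and ID1 rose by 0.66, but not without either shYAP1 library (limma adjusted p up to 0.054). SKI, a corepressor of SMADs, fell from 81.8, 74.2 and 73.02 to 45.3, 44.1 and 23.98 (−1.05), and the ligand GDF11 fell (−0.95). Of 28 Notch pathway genes 12 fell (42.9%), 5 of them at least 2-fold, and 5 rose (median −0.29, but −0.13 with length and GC trends removed and −0.16 without either shYAP3 library). NOTCH3, a receptor, fell from 39.5, 31.6 and 32.4 to 12.1, 13.3 and 6.93 (log2 −1.63, limma adjusted p = 0.00014), NOTCH2 from 145, 121 and 131 to 93.5, 64.1 and 42.9 (−1.04). NRARP (−1.17), a feedback inhibitor and target, LFNG (−1.11), which modifies the receptor with a sugar, and HES2 (from 12.01, 12.8 and 10.1 to 2.66, 5.05 and 2.50, −1.56) fell. HES1, the best known target, went the other way, from 7.43, 4.30 and 4.23 to 14.8, 18.1 and 8.94 (1.23).

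A few KLF transcription factors rose although the median of the list was negative. Of 14, 5 rose and 1 fell (median −0.25, but −0.48 scaled to listed reads with 4 higher and 8 lower, −0.03 with length and GC trends removed and −0.10 without either shYAP3 library). KLF5 stood at 43.4, 53.6 and 46.7 in control and 244, 222 and 160.2 in deprived medium (log2 2.09, SE 0.16, limma adjusted p = 1.2e-05), and KLF4 (1.47), KLF6 (1.34) and KLF10 (1.01) rose at least 2-fold. The 346 numbered ZNF genes, many of them zinc finger repressors, had 56 higher and 65 lower (median −0.03, but −0.02 with quantile normalization with 71 higher and 68 lower). Their shares, 16.2% higher and 18.8% lower, were near the 19% and 17.4% of all tested genes. Of those at least 2-fold changed, 14 fell and 4 rose, where 2.46% and 2.67% of all tested genes did so. ZNF469 fell from 24.7, 24.7 and 27.3 to 9.42, 6.91 and 5.96 (−1.68), and ZNF674 rose from 3.65, 3.25 and 3.68 to 10.3, 9.002 and 12.5 (1.35).

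Death receptor, caspase and BCL2 family genes moved in both directions. Of 25 death receptor and caspase genes 11 rose (44%) and 3 fell (median 0.38, but 0.08 scaled to listed reads with 4 higher and 8 lower, 0.05 with length and GC trends removed and 0.17 without either shYAP3 library). TNFRSF12A, the TWEAK receptor, stood at 73.03, 64.1 and 62.2 in control and 223, 185 and 230.5 in deprived medium (log2 1.66, limma adjusted p = 2.9e-05). TNFRSF10B, or DR5, the TRAIL receptor, rose from 121, 121 and 96.5 to 240.4, 202 and 158 (0.81), and CASP4 (0.96) and RIPK2 (0.76) rose. In the BCL2 family 6 of 21 rose and 3 fell (median 0.30, but 0.00053 scaled to listed reads with 3 higher and 7 lower, 0.13 with quantile normalization and 0.13 with length and GC trends removed). PMAIP1, or NOXA, a promoter of cell death, rose from 35.1, 47.2 and 37.7 to 152, 192 and 248 (log2 2.26, SE 0.17, limma adjusted p = 7.6e-06), and BBC3, or PUMA, from 8.36, 6.04 and 8.22 to 12.7, 13.8 and 13.5 (0.76). BMF, another member of this class, fell from 2.73, 2.11 and 3.36 to 0.745, 0.813 and 0.416 (−1.17, limma adjusted p = 0.0013).

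Among cyclins, their kinases and inhibitors 8 of 39 rose and 5 fell (median 0.05, but −0.25 scaled to listed reads with 3 higher and 16 lower, 0.05 with quantile normalization with 8 higher and 10 lower, −0.07 with length and GC trends removed with 5 higher and 10 lower and −0.01 without either shYAP3 library with 8 higher and 10 lower). The shares higher and lower were 20.5% and 12.8%, against 19% and 17.4% of all tested genes. CDKN1A, the inhibitor p21, rose from 92.998, 121 and 80.9 to 178, 288 and 206 (log2 1.17, limma adjusted p = 0.00034), while E2F2 (−1.01) and CCNF (−0.89) fell. CCND1, cyclin D1, did not pass (513, 512 and 428 in control and 546, 414 and 299 in deprived medium, limma adjusted p = 0.27). Double-strand break repair and Fanconi genes had 5 of 41 higher, RBBP8 (0.90) among them, and 2 lower, FANCC (−0.66) and XRCC2 (−0.68), the latter not without either shYAP1 library (adjusted p of at most 0.076). Its shares, 12.2% higher and 4.88% lower, were below those of all tested genes. Most of that list did not pass (median 0.13, but −0.16 scaled to listed reads with 3 higher and 13 lower, 0.05 with length and GC trends removed, 0.06 without either NC library and 0.07 without either shYAP3 library).

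Part of the actin and adhesion lists rose. Of 38 genes of the actin and myosin list, which includes the regulator SRF, 14 rose (36.8%) and 5 fell (median 0.30, but −0.01 scaled to listed reads with 8 higher and 9 lower and 0.06 with quantile normalization). SRF, the serum response factor that drives many of them, stood at 56.7, 51.3 and 46.5 in control medium and 197, 197 and 123 after deprivation (log2 1.69, SE 0.16, limma adjusted p = 3.7e-05), with no overlap. SRF binds the CArG box, and the 250 bases before its own start hold 2 of them, shown in capitals.
SRF: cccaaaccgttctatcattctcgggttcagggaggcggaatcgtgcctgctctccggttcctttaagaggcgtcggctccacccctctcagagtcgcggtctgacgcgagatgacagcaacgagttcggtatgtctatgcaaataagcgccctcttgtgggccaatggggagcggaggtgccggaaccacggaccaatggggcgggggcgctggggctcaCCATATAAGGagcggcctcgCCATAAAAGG
This stretch lies on the plus strand at chr6:43171019-43171268, and the boxes start 30 and 10 bases before the start. A CArG box was found in 1.29% of RefSeq promoters of this length and in 103 tested genes, of which 33 rose and 10 fell (median 0.18). EGR1 (log2 3.69), an immediate early factor, and FHL2 (from 46.9, 49.05 and 43.03 to 201, 209 and 207, 2.13) were among those that rose, and NSD1 among those that fell. ACTG1, gamma-actin, stood at 5653, 5548 and 4865 in control and 12824, 13610 and 9104 in deprived medium (1.13), and TAGLN, transgelin, at 13.4, 3.65 and 8.59 in control and 46.3, 15.9 and 25.4 in deprived medium (1.68). In TAGLN the shYAP1 deprived library was barely above the NC control library, although each line rose. MYL9 rose by 0.91.

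Among 26 integrin and adhesion genes 8 rose and 3 fell (median 0.18, but −0.12 scaled to listed reads with 4 higher and 7 lower, 0.39 with length and GC trends removed, 0.09 without either shYAP1 library and 0.30 without either shYAP3 library). VCL, vinculin, rose from 206, 195 and 177 to 557, 501 and 361 (log2 1.27, limma adjusted p = 0.00026), FERMT2, kindlin-2, from 33.8, 39.8 and 35.4 to 109.6, 102 and 85.3 (1.41) and ZYX, zyxin, by 1.19. ITGA2 rose by 0.74, and ITGB1 by 0.61, but the latter not without either NC library (limma adjusted p up to 0.079). Junction genes had 4 of 33 higher and 6 lower (median 0.07, but −0.17 scaled to listed reads, 0.01 with quantile normalization, 0.11 with length and GC trends removed with 10 higher and 7 lower and 0.14 without either shYAP3 library with 10 higher and 7 lower). PARD6B, a polarity protein, rose from 13.5, 15.9 and 11.9 to 61.6, 66.04 and 34.9 (1.86), OCLN, occludin, by 0.93, and PVRL1 (now NECTIN1) fell from 35.5, 29.3 and 31.1 to 14.95, 18.2 and 8.66 (−1.19).

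Tubulins fell in part. Of 16, 5 fell and 1 rose (median −0.19, but −0.42 with quantile normalization, −0.10 with length and GC trends removed and −0.32 without either shYAP1 library). TUBA1A (−0.67) and TUBA1C (−0.60), near-identical copies between which reads may be shared, fell, and TUBA1C stood at 804, 779 and 692 in control medium and 532, 536 and 439 after deprivation. TUBA4A fell by less in shYAP1 cells (52.3, 54.7 and 57.5 in control and 31.02, 46.9 and 33.9 in deprived medium) and lost its call when either NC library was left out (limma adjusted p up to 0.13). TUBA1A lost its call when either NC library was left out (limma adjusted p up to 0.076) and TUBA1C did so without those or either shYAP1 library (up to 0.091). TUBE1, epsilon-tubulin of the centriole, rose from 10.1, 13.8 and 14.6 to 45.1, 35.7 and 64.6 (log2 1.81, limma adjusted p = 5.7e-05). Of 40 genes of the primary cilium and its transport 16 rose (40%) and 1 fell (median 0.37, but 0.09 scaled to listed reads with 6 higher and 8 lower, 0.24 with length and GC trends removed and 0.25 without either shYAP3 library). IFT80 stood at 14.03, 25.7 and 27.3 in control and 31.7, 38.6 and 70.3 in deprived medium (1.01), and IFT74 (0.95) and WDR19 (0.73) rose. In the NC control library IFT80 and IFT74 were lower than in the other 2 control libraries.

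Keratins and other epithelial genes rose in part. Of 17, 11 rose (64.7%) and 2 fell (median 0.52, but 0.26 with quantile normalization and 0.33 with length and GC trends removed). KRT80 (1.63, 1.26 and 1.41 in control and 13.8, 4.82 and 2.91 in deprived medium), KRT16 (1.20) and KRT7 (0.96) rose from low values, and in KRT80 the NC deprived library was far above the other 2. KRT8 stood at 2346, 2078 and 1642 in control and 3185, 3250 and 2987 in deprived medium (0.65) and KRT18 at 1060, 814 and 663 in control and 1666, 1355 and 914 in deprived medium (0.62), with processed pseudogenes that can share their reads, and KRT19 rose by 0.48. KRT8, KRT18 and KRT19 did not pass without either NC or either shYAP1 library (highest limma adjusted p = 0.15, 0.17 and 0.34), nor EPCAM (0.52) without the NC control or either shYAP1 library (0.11). With quantile normalization KRT8 stood at −0.00631 and KRT19 at −0.10. CDX2, an intestinal transcription factor, fell from 13.5, 11.9 and 14.2 to 8.78, 6.91 and 5.75 (log2 −0.81, adjusted p = 0.0041). Among markers of other cell types CD68 (0.71), HLA-DRA (0.84) and CORO1A (0.48) rose and COL1A1 fell (−0.75), all from values of at most 11.2 in control medium, and the leukocyte markers CD14, CSF1R and ITGAM did not reach the filter. CORO1A did not pass without either shYAP1 library (limma adjusted p up to 0.26) and COL1A1 not without either shYAP3 library (up to 0.072).

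Most lysosomal, peroxisomal and zinc genes did not pass. Of 47 V-ATPase and lysosomal genes 9 rose (19.1%, against 19%) and 1 fell (median 0.17, but −0.13 scaled to listed reads with 2 higher and 4 lower and 0.10 with quantile normalization). The pump subunits ATP6V1D (from 32.6, 37.6 and 32.6 to 45.4, 59.8 and 98.4, log2 0.90) and ATP6V1E1 (0.78) rose. MCOLN1, a lysosomal calcium channel (0.60), and TFE3, a transcription factor of lysosomal genes (0.57), rose but lost their calls when either NC library was left out (limma adjusted p up to 0.19 and 0.18), and TFE3 also did so without either shYAP1 library (up to 0.086). Peroxisomal genes had 3 of 23 higher and 3 lower (median 0.0045, but −0.29 scaled to listed reads with 1 higher and 8 lower), with the import receptor PEX5 (−0.59) and its recycling ATPase PEX6 (−0.71) both lower. With length and GC trends removed 4 were higher and 7 lower. Of 22 zinc genes 6 rose and 2 fell (median 0.16, but −0.14 scaled to listed reads with 2 higher and 8 lower, −0.0014 with quantile normalization, 0.02 with length and GC trends removed and 0.10 without either shYAP3 library). SLC30A1, which exports zinc, rose from 22.3, 30.02 and 28.1 to 67.6, 85.3 and 63.3 (log2 1.39, limma adjusted p = 0.00012), and MT2A, a metallothionein whose family members are similar in sequence, from 318, 328 and 309.9 to 459.8, 599 and 562 (0.75). SLC30A4, another exporter, fell from 5.59, 7.02 and 6.41 to 3.14, 2.96 and 3.05 (−0.85).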

How the data were processed

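Poly(A) RNA was captured with oligo-dT, fragmented and amplified by PCR, per the labels' protocols, and Bowtie2, BWA and build hg19 stand in the submitters' processing notes with no roles. The authors deposited 1 normalized signal per gene and library, whose scaling is not given in the sources used here. Dividing by the smallest step of each library gave whole numbers for 100% of values (within 0.01), so whole reads were recovered for edgeR 4.0.16 and DESeq2 1.42.0 as alternatives. Strand is not given, so a gene and an antisense neighbour cannot be told apart. Genes that reached a value of 1 in 2 or more libraries were tested with limma 3.58.1 in R 4.3.3 on log2(value + 1), with construct as a block and a mean-variance trend, and p-values were adjusted by Benjamini-Hochberg over all 12263 genes and called at 0.05. The pairing comes from the labels, since each construct is its own line; same-line deviations correlated by 0.46 (NC), 0.01 (shYAP1) and 0.33 (shYAP3). The limma fit was also run on simulated reads with the same noise level for all genes and no trend with transcript length. That run cannot speak to the length trend seen here, and its outcome is not used.

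Lists were read by counts and medians. Each list gave the 4 members of smallest p, the member of highest mean and up to 6 members past the threshold and at least 2-fold changed, from which the text draws. A promoter was shown for the member of its list with the element and the smallest p. HSPA5 is in none of the lists, and its promoter was shown as that of the gene with the element and the largest change. The members and lists were chosen with earlier results of these data known, and genes named for a promoter element and the added families after their values were seen. Promoters were RefSeq windows (GRCh38.p14, 10000 of the tested genes matched by symbol). Alternatives were edgeR, DESeq2, another pseudocount and filter, quantile normalization, scaling to listed reads, removal of length and GC trends, no block, and leaving out each library. Other columns were not used. Some items are not reported here.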

Additional observations from a re-analysis of the deposited data

Results flagged for a closer look

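The median response of 4 lists had 1 sign in NC cells and the other in both knockdown lines, and the difference was not tested. The mTORC1 nutrient sensing list had a median log2 change of −0.057 in NC cells against 0.12 in shYAP1 and 0.01 in shYAP3 cells. The list of AMPK and related kinases stood at 0.056 in NC against −0.14 and −0.24. Nuclear pore genes stood at 0.015 in NC against −0.08 and −0.12, and cyclins, CDKs and inhibitors at −0.031 against 0.03 and 0.05. NC has 1 library in each medium, and these medians are small beside the SD of the changes across genes in each line (0.51, 0.50 and 0.73).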

How the results depend on the processing

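Scaling to listed reads moved the result most: 884 genes were higher and 4146 lower, 147 and 910 of them at least 2-fold, and 17.6% of calls were higher in place of 52.2%, with the median of all genes at −0.24 in place of 0.05. Genes at least 2-fold changed, 328 higher and 302 lower, numbered 374 and 546 with DESeq2, 402 and 575 with edgeR, 418 and 533 with a pseudocount of 0.1 and 251 and 171 with length and GC trends removed. Leaving out 1 library in turn gave 1784 to 2620 higher and 1562 to 2306 lower genes, 257 to 498 at least 2-fold higher and 197 to 420 at least 2-fold lower; such a fit rests on the other 2 lines. With no replicate block, so without the pairing by line, 2018 genes were higher and 1918 lower with genotype as a term, and 1644 and 1696 with medium alone. Of 281 named genes 244 passed, 204 of these without each library in turn and 166 in all 11 other settings. With quantile normalization EIF4B stood at −0.14, KRT19 at −0.10, KRT8 at −0.00631, P4HB at −0.066 and TXNRD1 at −0.034, the other sign; the cause was not tested. Of 57 list medians, 24 changed sign scaled to listed reads, 6 with length and GC trends removed, 2, 4 and 5 without the NC, shYAP1 and shYAP3 deprived library, 4 with quantile normalization and 1 each with edgeR and DESeq2. The value of 3 reads was 0.122 to 0.208 among libraries, so changes of genes near a value of 1 rest on few reads.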

Other observations

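Among gene families that the lists did not cover and that were chosen after their values were seen, HOX genes, the homeobox factors that set position along the body axis, stood lower. Of 21 HOX genes tested, out of 32 listed, 12 fell and 1 rose, with a median log2 fold change of −0.54 and of −0.72 with length and GC trends removed. Their median transcript length of 2041 bases is below the 3725 of all tested genes. HOXA13 stood at 8.53, 9.01 and 8.54 in control medium and 2.18, 2.79 and 2.01 after deprivation (log2 −1.55, SE 0.16, limma adjusted p = 7.4e-05). HOXB6 fell from 20.3, 18.7 and 19.9 to 7.29, 6.91 and 4.71 (−1.52), and in both genes every deprived library lay below every control library. HOXB5 (−1.48), HOXA5 (−1.35), HOXC13 (−1.17) and HOXC8 (−1.13) also fell at least 2-fold. HOXB9 was the 1 that rose (0.46), but it passed in only 2 of 6 fits that left out 1 library. Among those that fell, HOXA11 (−0.52) also passed in only 2 of these fits and HOXA9 (−0.54) in 4. Of all tested genes 17.4% fell and 19% rose. HOXB7 was level at 22.1, 21.2 and 23.8 and 20.2, 20.5 and 25.4.

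All 4 adenylyl cyclases tested, the enzymes that make cyclic AMP, fell. ADCY6 stood at 27.9, 24.5 and 20.6 and 13.5, 10.3 and 8.25 (log2 −1.13, limma adjusted p = 0.00037), and ADCY9 (−1.17), ADCY3 (−1.06) and ADCY7 (−0.69) fell too. With length and GC trends removed they stood at −0.73, −0.71, −0.75 and −0.31, and their median transcript length was 6338.5 bases. Of 25 KCN potassium channel genes 10 fell and 0 rose, and KCNJ12 was among those that fell (from 18.6, 18.7 and 15.5 to 6.17, 8.31 and 4.02, −1.42). Of all tested genes 17.4% fell and 19% rose. KCNK3 (−0.47) and KCNK5 (−0.44) passed in 0 of 6 fits that left out 1 library, and KCND1 (−0.51) and KCNS3 (−0.45) in 2. The median of the channels was −0.27, but 0.03 with length and GC trends removed.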
